A study of Mus musculus with 10 samples.

Results

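The calmodulin-dependent kinases are enzymes that neurons use to turn a rise in calcium into protein phosphorylation. 10 genes of this family were chosen by name and described in every library, out of 30935 genes in the count table. They are the CaMKII subunit genes Camk2a, Camk2b, Camk2d and Camk2g, the kinase genes Camk1, Camk1d and Camk4, the upstream kinase genes Camkk1 and Camkk2, and the kinase-like gene Camkv. All 10 passed the filter on low counts and were tested. Their symbols were matched to the Entrez identifiers of the table. The choice was made by name, with earlier results of these data known.

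Both genotypes were sampled as cerebral cortex of mice at postnatal day 8. The knockout group held 5 mice in which both Rbfox1 alleles lacked the element HAR.505 (replicates 1, 3, 5, 6 and 8), and the wild-type group held 5 Rbfox1 +/+ mice (replicates 2, 4, 5, 6 and 7). HAR.505 is a human accelerated region, a conserved noncoding element with many substitutions in the human lineage. A gene count does not cover such an element, so it does not check the genotype labels, and the sources used here do not give strain, sex or litter.

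CaMKII assembles into large holoenzymes in which neighbouring subunits phosphorylate each other, so that activity can outlast the calcium signal. In forebrain neurons the alpha subunit is the best known regulator of synaptic strength, and the beta subunit also binds actin. The alpha subunit becomes more abundant relative to beta as the rodent forebrain matures after birth, which makes the ratio of their transcripts a sign of maturation. CaMKI and CaMKIV form a separate cascade: each is activated by a CaMKK, and CaMKIV acts largely in the nucleus.

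Library totals ran from 16479594 to 22391943 counts, which left between 664 and 32512 counts for each kinase gene in each library. For 5 markers of cortical excitatory neurons, among them Slc17a7, Tbr1, Neurod6 and Emx1, the summed level was 1333 to 1481 CPM in knockout and 1289 to 1383 CPM in wild-type libraries, where CPM is the usual depth-scaled count, here on TMM-scaled library totals. Slc17a7 made up most of this sum, with means of 988 CPM in knockout and 926 CPM in wild type. Tbr1 was lower in knockout (mean 110 against 125 CPM), and the 4 others were higher. None of the 5 passed adjustment in the edgeR test below, where Tbr1 and Neurod6 had an unadjusted p under 0.05. Markers of other brain parts differed between the libraries. The 7 choroid plexus markers summed to 5.57 to 216 CPM in knockout and 233 to 299 CPM in wild-type libraries, and 2 of the 7 were at 0 in knockout replicate 3 and 1 in knockout replicate 6. Their sum was 5.57, 6.11 and 11.7 CPM in knockout replicates 3, 5 and 6, against 216 and 90.1 CPM in knockout replicates 1 and 8. Some fits below leave out knockout replicates 3, 5 and 6 for this reason, so only replicates 1 and 8 remain. The 9 striatal markers summed to 121 to 166 CPM in knockout and 154 to 278 CPM in wild-type libraries. In bulk tissue, fewer cells of a type and less RNA per cell cannot be told apart.

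The 10 kinase genes were all expressed, and none differed between the genotypes by the test across all genes. By edgeR's quasi-likelihood test with Benjamini-Hochberg adjustment, 0 of the 10 passed an adjusted p of 0.05, where 0.381% of the 15488 tested genes did, and 0 had an unadjusted p under 0.05, where 8.71% of tested genes did. DESeq2 and limma-voom also called 0 of the 10, with 0 at an unadjusted p under 0.05 in each. In 5 of the 22 alternatives, 1 member, Camk2a, was higher at an unadjusted p under 0.05: with no filter, with the hippocampal marker covariate, and without knockout replicate 3, knockout replicate 8 or wild-type replicate 6. In that order, 2146, 1367, 1082, 1812 and 1335 of all tested genes had such a p in either direction. The main fit had 1349. The log2 fold changes ran from -0.083 for Camk2d to 0.093 for Camk2a, with a median of 0.022 beside -0.0021 over all tested genes, and 7 were above 0 and 3 below. In 0 of the 10 did the libraries of the genotypes separate without overlap, where 1.82% of tested genes did. In an alternative fit with the replicate numbers as a block, 3 were above 0 and 7 below. The genotypes share only the replicate numbers 5 and 6, so only these libraries carry the genotype difference in that fit. The SE of Camk2b was 0.11 there, against 0.040 in the main fit.

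**Figure D1:**
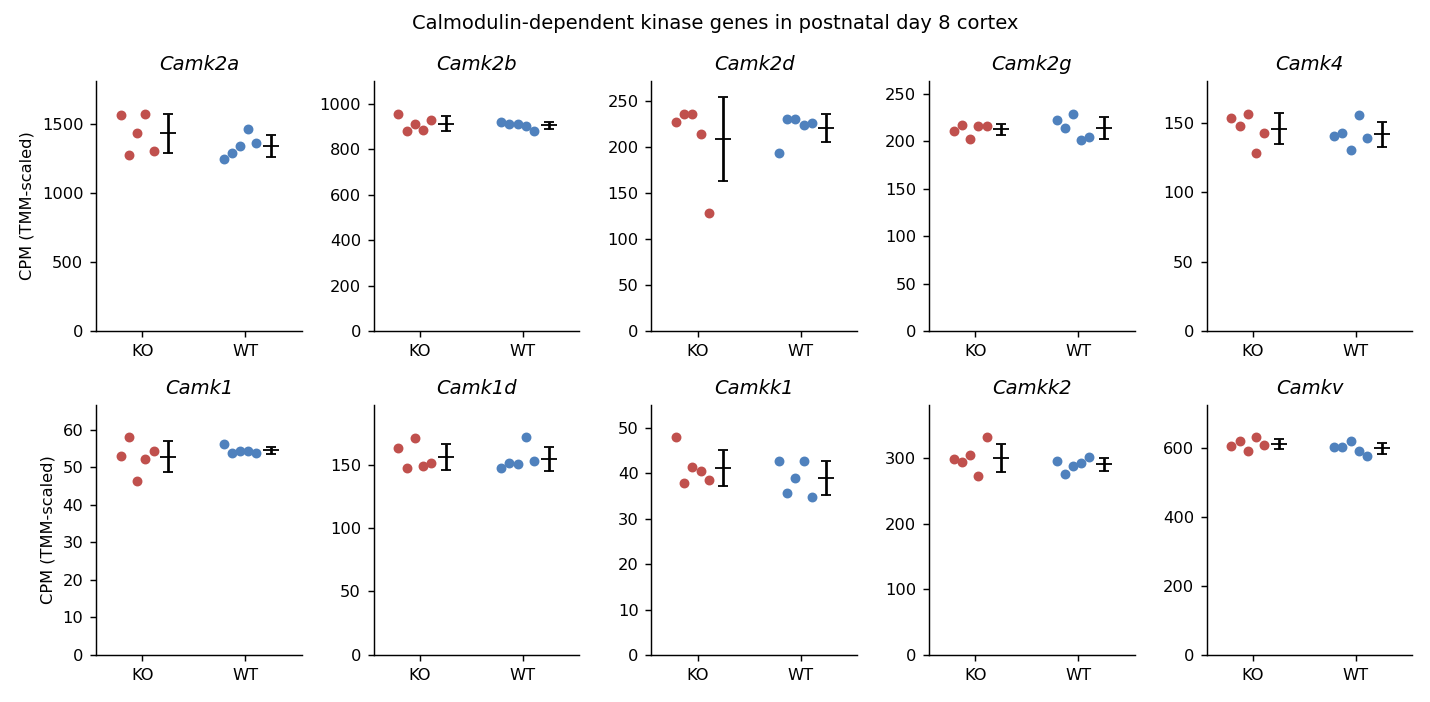
Level of each kinase gene in CPM (y axes, from 0) in 5 knockout (KO, red) and 5 wild-type (WT, blue) libraries, with the mean and SD as a black cross and bar. The genotypes overlap in every panel, and knockout replicate 8 stands apart for Camk2d at 129 CPM.

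Camk2a (Entrez 12322), the alpha subunit gene, had the highest level of the family. In knockout replicates 1, 3, 5, 6 and 8 it stood at 1562, 1276, 1430, 1571 and 1302 CPM, against 1244, 1290, 1337, 1461 and 1362 CPM in wild-type replicates 2, 4, 5, 6 and 7. Knockout replicates 1 and 6 were above every wild-type library, while knockout replicates 3 and 8 lay among the lower wild-type libraries. The means were 1428 ± 139 CPM in knockout and 1339 ± 81.6 CPM in wild type (SD, n = 5 each). The log2 fold change was 0.09 (SE 0.057, edgeR adjusted p = 0.706), the smallest unadjusted p of the 10 (0.118). As a percent change from the wild-type level, its 95% interval ran from -1.76% to 15.8%.

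Camk2b (Entrez 12323), the beta subunit gene, varied little between libraries. With replicates given as for Camk2a, it stood at 956, 879, 913, 883 and 930 CPM in knockout, against 918, 910, 911, 903 and 881 CPM in wild type. The lowest and the highest of the 10 were both knockout libraries, and the wild-type values lay between them. The coefficient of variation was 3.55% in knockout and 1.57% in wild type, where counting error alone gives 0.774%. The log2 fold change was 0.01 (SE 0.040), with a 95% interval from -4.73% to 6.78%.

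Camk2g (Entrez 12325), the gamma subunit gene, is expressed in many tissues and is known for carrying calmodulin toward the nucleus. Its level was 211, 217, 203, 215 and 216 CPM in knockout and 222, 213, 229, 201 and 204 CPM in wild-type libraries, ranges that overlapped over most of their length. Its log2 fold change was -0.01 (SE 0.047), with a 95% interval from -7.10% to 6.15%.

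Camk2d (Entrez 108058), the delta subunit gene, best known from heart muscle, varied most among the members in knockout, through 1 library. The knockout libraries held 228, 236, 236, 214 and 129 CPM, against 194, 230, 230, 224 and 226 CPM in the wild-type libraries. Knockout replicate 8 was far below the other 4 knockout libraries, and wild-type replicate 2 was the lowest wild-type library. The coefficient of variation was 21.9% in knockout and 6.90% in wild type, against 1.59% from counting error. The log2 fold change was -0.08 (SE 0.16), with the widest interval of the 10, from -27.0% to 22.2%. Without knockout replicate 8 it was 0.05 (SE 0.051, edgeR adjusted p = 0.788), so that library set both the sign and the width.

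The tested genes on either side of Camk2d in the RefSeq order of GRCm38 were looked at after the values were seen. Ank2 encodes the scaffold ankyrin B. It stood at 1060 CPM in that library, within the 1041 to 1232 CPM of the other knockout libraries. Arsj, a sulfatase gene on the other side, was at 3.17 CPM or below in all 10 libraries, with 1.01 CPM in knockout replicate 8 and 1.39 to 3.17 CPM in the other knockout libraries. Among 4805 genes with a mean of at least 50 CPM, 9 were further below the mean log2 CPM of the 9 other libraries than Camk2d in knockout replicate 8, where Camk2d lay 0.80 lower on the log2 scale. In this count, Hap1, a huntingtin-associated protein gene, was lowest at 46.2 CPM in knockout replicate 8 against a mean of 135 CPM in the 9 others. Htr2c, a serotonin receptor gene (23.4 against 63.1 CPM), Nr2f2, a nuclear receptor gene (28.5 against 70.2 CPM), and Calb2, the calretinin gene (30.4 against 58.2 CPM), were also among the 9. Knockout replicate 8 also had the lowest inhibitory neuron marker sum of the 10 libraries, at 304 CPM against 362 to 400 CPM in the other knockout and 381 to 444 CPM in the wild-type libraries. Its erythroid marker sum was the highest, at 692 CPM against 386 to 421 CPM in the other knockout and 482 to 682 CPM in the wild-type libraries. The low genes were named after their values were seen, and the part of these genes and markers in the low Camk2d value was not tested.

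Within the CaMKII subunits, shares were computed per kilobase of the longest transcript that GENCODE pairs with a RefSeq record. Camk2a made up 47.1% ± 2.17 in knockout and 45.5% ± 1.73 in wild type (SD, n = 5 each) of the summed level per kilobase, and Camk2b 37.3% ± 2.02 in knockout and 38.0% ± 1.25 in wild type. Camk2g accounted for 9.44% ± 0.677 in knockout and 9.77% ± 0.667 in wild type, and Camk2d for 6.19% ± 1.30 in knockout and 6.76% ± 0.398 in wild type. Alpha and beta together therefore dominated in every library of both genotypes, with Camk2a first.

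The ratio of Camk2a to Camk2b counts within a library needs no scaling between libraries. It was 1.63, 1.45, 1.57, 1.78 and 1.40 in the knockout libraries, against 1.36, 1.418, 1.47, 1.62 and 1.55 in the wild-type libraries. The highest were knockout replicates 6 and 1, followed by wild-type replicate 6, and the lowest was wild-type replicate 2, so the genotypes overlapped. The means were 1.57 ± 0.151 in knockout and 1.48 ± 0.104 in wild type (SD, n = 5 each). On the log2 scale the knockout lay 0.08 above the wild type, with a 95% interval from -0.098 to 0.25 and an exact two-sided permutation p of 0.357, the same after adjustment over the 3 ratios tested. The smallest p this design allows is 0.00794. Per kilobase, the level of Camk2a was 1.27 ± 0.122 times that of Camk2b in knockout and 1.199 ± 0.0839 times in wild type (SD, n = 5 each), and with the union of all annotated exons as length the mean ratio was 1.91 in knockout and 1.81 in wild type.

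**Figure D2:**
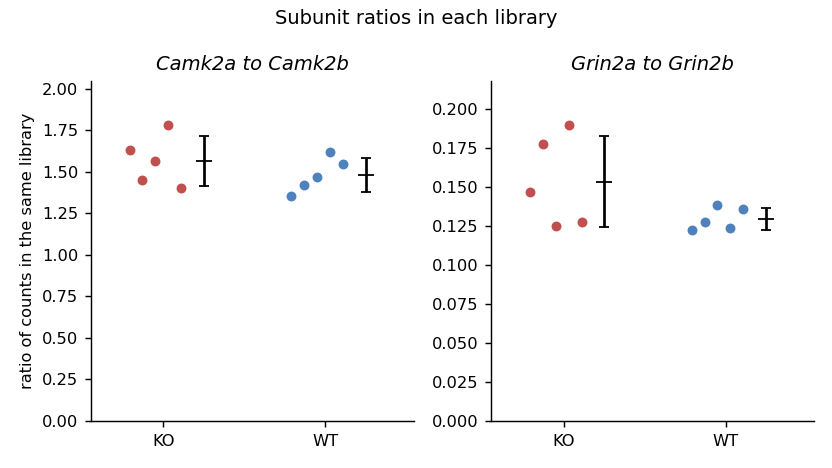
Ratio of counts of each pair of subunit genes within a library (y axes, from 0) in 5 knockout (KO, red) and 5 wild-type (WT, blue) libraries, with the mean and SD as a black cross and bar. Both ratios overlap between genotypes, and the knockout libraries of the Grin2a to Grin2b ratio spread more widely, at 0.125 to 0.189 in knockout against 0.122 to 0.138 in wild type.

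Another subunit ratio that shifts as cortex matures was set beside it. The ratio of Grin2a to Grin2b, NMDA receptor subunit genes of which Grin2a gains ground after birth, was 0.147, 0.177, 0.125, 0.189 and 0.128 in knockout libraries, against 0.122, 0.127, 0.138, 0.123 and 0.136 in wild-type libraries. Knockout replicates 1, 3 and 6 were above all wild-type libraries and the other two were not. The log2 difference was 0.23 (95% interval -0.068 to 0.52), and the exact permutation p adjusted over the 3 ratios was 0.179. Without knockout replicate 5 the difference was 0.29 and this adjusted p 0.0476, and without knockout replicates 3, 5 and 6 together they were 0.085 and 0.571. In knockout replicates 3 and 6 Grin2b stood at 408 and 432 CPM, where the other knockout libraries held 620 to 727 CPM and the wild-type libraries 519 to 752 CPM.

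Across the 10 libraries the Camk2a to Camk2b ratio was related to 4 other measures, and 0 of the 4 relations passed. With the Grin2a to Grin2b log2 ratio, Pearson's r was 0.50 and Spearman's rho 0.44 (permutation p = 0.146 and 0.204, adjusted over the 4 relations 0.439 and 0.626), and r was 0.42 without knockout replicates 3 and 6. With the mean log2 CPM of the striatal markers, r was -0.43 and rho -0.26 (permutation p = 0.220 and 0.469, adjusted 0.439 and 0.626), and r was -0.60 without knockout replicate 3 and wild-type replicate 5. With the choroid plexus markers, r was -0.25 and rho -0.15 (permutation p = 0.480 and 0.684, adjusted 0.480 and 0.684), and r was -0.55 without knockout replicates 3 and 5.

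Camk2a levels moved with the mean log2 CPM of 6 hippocampal markers across the libraries, a relation looked at after the values were seen. Camk2a is abundant in hippocampal pyramidal neurons, and hippocampus lies against the cortex in a dissection. The mean log2 CPM of the 6 markers (Prox1, Dsp, Tdo2, Iyd, Fibcd1 and Spink8) was 1.38 to 2.20 in knockout and 1.65 to 2.34 in wild-type libraries. Against it, log2 CPM of Camk2a had r = 0.73 and rho = 0.81 (permutation p = 0.0162 and 0.00753, adjusted over 6 relations 0.0970 and 0.0452), and r = 0.77 without knockout replicate 3 and wild-type replicate 6. The Camk2a to Camk2b log2 ratio had r = 0.66 and rho = 0.76 (permutation p = 0.0382 and 0.0152, adjusted 0.115 and 0.0456), and r = 0.76 without those libraries. The rank correlations passed the adjustment and the Pearson correlations did not. Prox1 (14.4 to 40.1 CPM in knockout, 29.5 to 37.3 CPM in wild type) and Fibcd1 (29.3 to 54.9 CPM in knockout, 41.0 to 54.2 CPM in wild type) made up most of the sum, and the 4 others were at 4.58 CPM or below in every library. The mean log2 CPM weights all 6 equally, so these 4 low genes carry most of its weight. Knockout replicate 3 held the lowest Prox1 (14.4 CPM) with Fibcd1 at 54.8 CPM. Knockout replicate 8 held the lowest Fibcd1 (29.3 CPM) with Prox1 at 34.3 CPM. With 5 libraries in each genotype, no relation within a genotype was computed, and the part of hippocampal tissue in the Camk2a level was not tested. With this marker mean as a covariate, the log2 fold change of Camk2a was 0.10 (SE 0.044, edgeR adjusted p = 0.475).

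**Figure D3:**
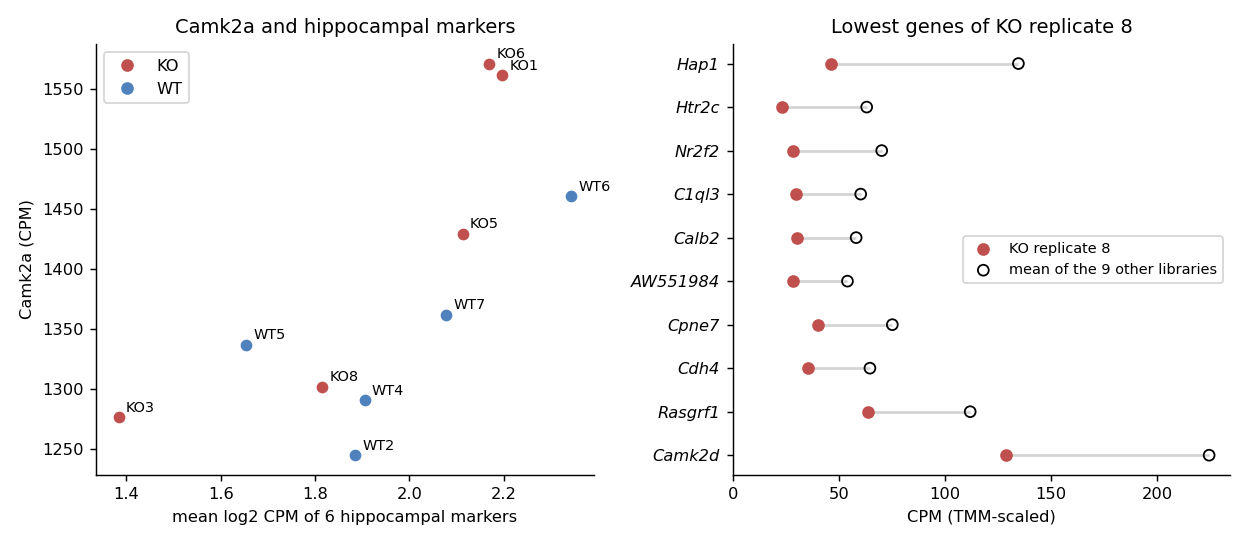
Left, Camk2a level in CPM (y axis) against the mean log2 CPM of 6 hippocampal markers (x axis) in each knockout (KO, red) and wild-type (WT, blue) library; neither axis starts at 0. Right, CPM (x axis, from 0) in knockout replicate 8 (filled) and the mean of the 9 other libraries (open) for Camk2d and the 9 genes further below that mean in this library, with Camk2d at 129 against 224 CPM.

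The kinases outside CaMKII stayed within the spread of the libraries. Camk4 (Entrez 12326), which encodes the nuclear kinase CaMKIV, stood at 154, 148, 157, 128 and 143 CPM in knockout and 141, 142, 130, 156 and 139 CPM in wild-type libraries, and its lowest value was that of knockout replicate 6. The log2 fold change was 0.04 (SE 0.055), with a 95% interval from -4.93% to 11.3%. Camk1d (Entrez 227541), which encodes CaMKI delta, stood at 163, 147, 171, 149 and 151 CPM in knockout and 147, 151, 150, 171 and 153 CPM in wild-type libraries. 1 library of each genotype, knockout replicate 5 and wild-type replicate 6, shared the top of its range at 171 CPM. Its log2 fold change was 0.01 (SE 0.053), with an interval from -6.31% to 8.85%.

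Camk1 (Entrez 52163), which encodes CaMKI alpha, was low and tightly grouped in wild type. It stood at 53.1, 57.9, 46.4, 52.3 and 54.3 CPM in knockout, against 56.2, 53.7, 54.3, 54.3 and 53.8 CPM in wild-type libraries. The wild-type coefficient of variation of 1.82% was below the 3.18% that counting error alone gives, and the knockout value was 7.95%. Camk1 had a log2 fold change of -0.04 (SE 0.062), with a 95% interval from -11.3% to 5.91%.

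The upstream kinases differed in level from each other and not detectably between genotypes. Camkk2 (Entrez 207565), whose product activates CaMKI and CaMKIV and also the energy sensor AMPK, stood at 299, 293, 305, 272 and 331 CPM in knockout, against 295, 276, 288, 292 and 302 CPM in wild-type libraries. Knockout libraries held both its highest value, in replicate 8, and its lowest, in replicate 6. Its log2 fold change was 0.05 (SE 0.049), with an interval from -3.65% to 10.7%. Camkk1 (Entrez 55984), the related kinase, stood at 47.9, 37.8, 41.5, 40.4 and 38.5 CPM in knockout and 42.8, 35.6, 39.0, 42.7 and 34.8 CPM in wild-type libraries. Its log2 fold change was 0.08 (SE 0.077), with an interval from -5.27% to 17.9%.

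Camkv (Entrez 235604) encodes a kinase-like protein of vesicles and dendritic spines that binds calmodulin and is regarded as lacking kinase activity. It stood at 606, 619, 590, 630 and 609 CPM in knockout, against 602, 602, 619, 591 and 577 CPM in wild-type libraries. Its coefficient of variation was 2.46% in knockout and 2.62% in wild type. Its log2 fold change was 0.03 (SE 0.041), with a 95% interval from -3.69% to 8.28%.

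**Figure D4:**
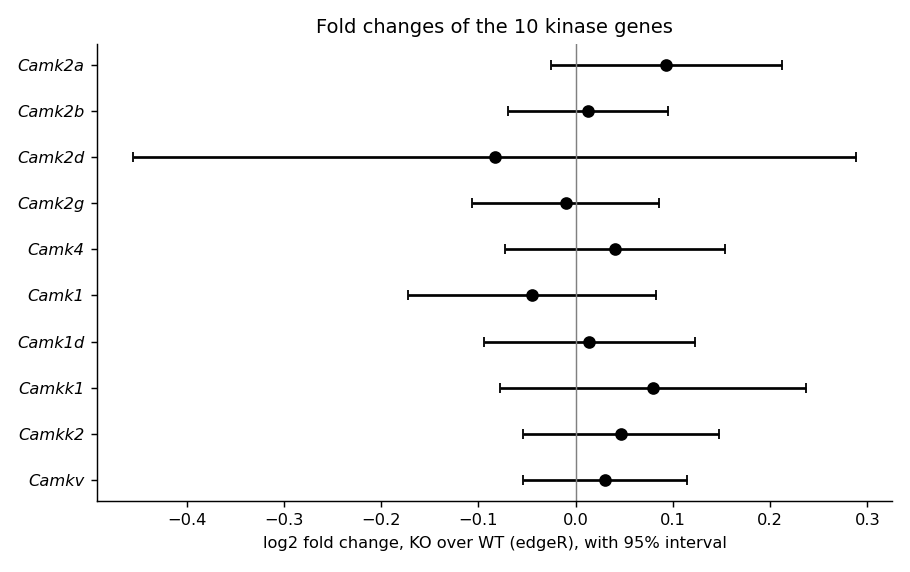
Log2 fold change of knockout over wild type (x axis) for each of the 10 kinase genes, as points with 95% intervals from edgeR. Every interval includes 0, and that of Camk2d is the widest, while those of Camk2b and Camkv are the narrowest.

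Compared per kilobase of the longest RefSeq-paired transcript, the mean levels had the same order in both genotypes. Mean CPM per kilobase of Camk2a was 287 in knockout and 269 in wild type. Camk2b followed with 227 in knockout and 225 in wild type, and Camkv with 186 in knockout and 183 in wild type. The ranges of these 3 genes over the 10 libraries did not overlap, and Camk2a was above 99.2%, Camk2b above 99.0% and Camkv above 98.4% of 14600 tested genes with a length. Camkk2 came next at 61.8 CPM per kilobase in knockout and 59.8 in wild type. Camk2g had 57.4 in knockout and 57.8 in wild type, and Camk4 had 53.6 in knockout and 52.1 in wild type. Neighbouring ranges among Camkk2, Camk2g and Camk4 overlapped. Camk2d, at 23.3 to 42.8 CPM per kilobase in knockout and 35.2 to 41.7 in wild type, overlapped with Camk1, which averaged 35.3 in knockout and 36.4 in wild type. Camk1d averaged 22.4 in knockout and 22.2 in wild type and overlapped with Camk2d through knockout replicate 8. Camkk1 was lowest at 11.1 in knockout and 10.5 in wild type, without overlap.

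The order depended on the length used. With the union of all annotated exons, Camk2a stayed first at 191 CPM per kilobase in knockout and 179 in wild type. Camkv then stood above Camk2b, with 162 in knockout and 159 in wild type for Camkv and 99.999 in knockout and 99.1 in wild type for Camk2b. Camk2d, whose annotated exons span 22493 bases in union against 5524 in the longest paired transcript, was at 9.28 in knockout and 9.82 in wild type.

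Among themselves, the 10 genes showed no pair that moved together past adjustment. Of 45 pairs of log2 CPM over the 10 libraries, 0 passed the permutation test of Pearson's r after adjustment over the 45 and 6 had an unadjusted p under 0.05. The lowest adjusted p was 0.267, and r ran from -0.76 for Camk2g and Camk1d to 0.76 for Camk4 and Camk1d. For Camk2g and Camk1d rho was -0.85 (adjusted permutation p = 0.129), and for Camk4 and Camk1d it was 0.60 (adjusted 0.449). Without the 2 libraries farthest from the median of the first gene, r was -0.76 for Camk2g with Camk1d and 0.70 for Camk4 with Camk1d. In that repeat 1 pair passed, Camk2a with Camk1d without knockout replicates 1 and 6, with r = 0.94 (adjusted permutation p = 0.0211), where r over all 10 libraries was 0.54 (rho 0.58, adjusted permutation p = 0.483 and 0.449). All pairs share the same libraries and scaling.

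The genes whose levels followed Camk2a most closely over the 10 libraries were Hapln1 (Pearson's r 0.91, Spearman's rho 0.92), Nptx1 (r 0.91, rho 0.88), Dock4 (r 0.90, rho 0.89), Rasgrp1 (r 0.89, rho 0.85) and Nefl (r 0.89, rho 0.78). They were the 5 highest r of 10088 named genes with a mean of at least 10 CPM, and are given as a description. Hapln1 encodes a link protein of the extracellular matrix, Nptx1 a secreted synaptic pentraxin and Nefl the light neurofilament chain. None of the 5 passed the edgeR test between genotypes (adjusted p 0.259 to 0.878).

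Genes around the kinases were read from lists, each given beside the shares of all tested genes at an unadjusted edgeR p under 0.05, which were 4.19% higher and 4.52% lower in the knockout. Of 13 tested kinase genes linked to calmodulin outside the family, 0 passed the edgeR test over all genes, 0 were higher and 2 lower at an unadjusted p under 0.05, and the median log2 fold change was 0.0036. Dclk3, a doublecortin-like kinase gene, stood at 16.5 ± 1.47 CPM in knockout and 21.2 ± 1.87 CPM in wild type (SD, n = 5 each; log2 fold change -0.36, SE 0.096, edgeR adjusted p = 0.112), with no overlap between the genotypes. For Eef2k, whose kinase product slows translation elongation, the log2 fold change was -0.14 (SE 0.062). DESeq2 called 1 gene of this list lower and limma-voom 0. Over all tested genes DESeq2 called 124 and limma-voom 45, against 59 in the main fit.

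Of 9 tested genes of calmodulin and proteins that bind it, 0 passed by edgeR, while 1 was higher and 4 lower at an unadjusted p under 0.05, and the median was -0.027. Pcp4l1, which encodes a small protein related to the calmodulin binder Pcp4, stood at 12.5 ± 1.92 CPM in knockout and 18.3 ± 3.94 CPM in wild type (SD, n = 5 each; log2 fold change -0.56, SE 0.13, edgeR adjusted p = 0.0601). Its highest value, 23.9 CPM, was in wild-type replicate 5, the library with the highest striatal marker sum of 278 CPM, and the part of striatal tissue was not tested. DESeq2 called 1 gene of this list lower and limma-voom 0, where they called 124 and 45 genes over all.

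CaMKII inhibitors and phosphatases of the pathway had 0 of 11 tested genes past the edgeR test, 2 higher and 0 lower at an unadjusted p under 0.05, and a median of 0.025. The inhibitor gene Camk2n1 stood at 649 ± 55.5 CPM in knockout and 592 ± 41.3 CPM in wild type (SD, n = 5 each; log2 fold change 0.13, SE 0.054), with its highest value, 742 CPM, in knockout replicate 3. For Ppp3r1, which encodes the regulatory subunit of the phosphatase calcineurin, the log2 fold change was 0.10 (SE 0.047). DESeq2 and limma-voom called 0 of these 11.

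CaMKII substrates and anchors had 0 of 11 tested genes past the edgeR test, 4 higher and 0 lower at an unadjusted p under 0.05, and a median of 0.040. Tiam1, which encodes an exchange factor for Rac, stood at 123 ± 11.5 CPM in knockout and 107 ± 6.45 CPM in wild type (SD, n = 5 each; log2 fold change 0.20, SE 0.060, edgeR adjusted p = 0.204). Without knockout replicate 8, 1 of the 11 was called higher, and with no filter also 1. These fits called 182 and 171 genes over all. Without knockout replicates 3, 5 and 6, 1 of the 11 had an unadjusted p under 0.05. DESeq2 and limma-voom called 0 of these 11.

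Targets of the CaMKK cascade had 0 of 13 tested genes past the edgeR test, 0 at an unadjusted p under 0.05, and a median of 0.0071. The log2 fold change was 0.12 (SE 0.062) for Creb1, which encodes the best known CaMKIV target, and 0.26 (SE 0.14) for Bdnf, a growth factor gene driven by neuronal activity. DESeq2 and limma-voom called 0 of these 13.

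**Figure D5:**
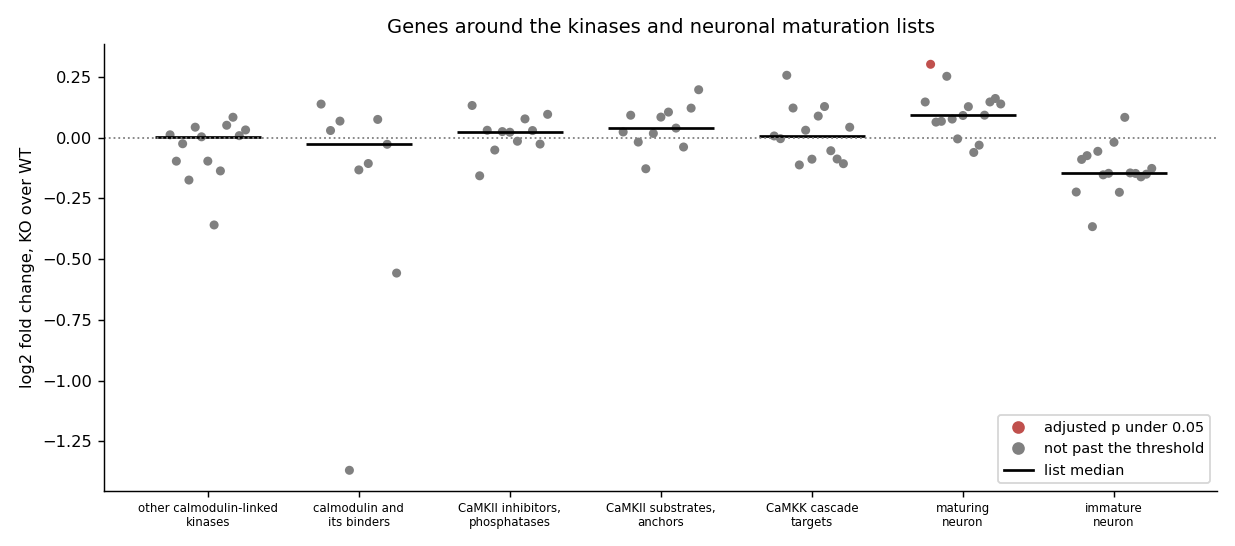
Log2 fold change of knockout over wild type (y axis) for every tested gene of 7 lists (x axis), with list medians as black lines, the median of all tested genes as a dotted line and genes past an adjusted edgeR p of 0.05 in red. 1 point, in the maturing list, is red, and the medians of the maturing and immature lists are 0.093 and -0.15.

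Genes of maturing and of immature neurons were read as a wider setting for the Camk2a to Camk2b ratio. Of 15 tested maturing-neuron genes, 1 rose and 0 fell by the edgeR test over all genes, which called 0.187% of tested genes higher and 0.194% lower, 5 were higher and 0 lower at an unadjusted p under 0.05, and the median log2 fold change was 0.09. Snap25, a vesicle fusion gene, stood at 729 ± 40.1 CPM in knockout and 659 ± 28.0 CPM in wild type (SD, n = 5 each; log2 fold change 0.15, SE 0.046, edgeR adjusted p = 0.229). Of 15 tested immature-neuron genes, 0 passed by edgeR, 0 were higher and 6 lower at an unadjusted p under 0.05, and the median was -0.15. The log2 fold change was -0.13 for Tubb3, a neuronal tubulin gene (SE 0.050, edgeR adjusted p = 0.416), and -0.15 for Grin3a, an NMDA receptor subunit gene of juvenile cortex (SE 0.061, edgeR adjusted p = 0.425). DESeq2 and limma-voom called 0 of the immature list.

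Slc17a7 is in both the maturing list and the excitatory markers. The counts of these lists changed with single libraries and with the marker covariates. Without knockout replicate 8, 2 maturing genes were called higher and 4 immature genes lower. That fit called 182 genes over all, against 59 in the main fit. None of either list was called without knockout replicate 3 or wild-type replicate 2, where 17 and 15 genes were called over all. The immature list had 10 genes lower at an unadjusted p under 0.05 without knockout replicate 8 and 0 without knockout replicate 6. Over all tested genes and in either direction, 1812 and 1293 had such a p in these fits, against 1349 in the main fit. Without knockout replicates 3, 5 and 6 the medians were 0.15 for the maturing and -0.053 for the immature list, with the choroid plexus covariate 0.17 and -0.035, and with the striatal covariate 0.23 and -0.072. In these 3 fits none of either list was called, where 12, 0 and 1 genes were called over all. With so few calls over all, this says little about the lists. As a covariate, the striatal mean log2 CPM was 2.88 to 3.49 in knockout and 3.57 to 4.57 in wild type. The choroid plexus mean was -0.92 to 2.02 in knockout and 2.35 to 2.61 in wild type. Neither overlapped between the genotypes, so fits with these covariates cannot cleanly separate genotype from marker level. With the replicate numbers as a block none of either list was called, and 0 maturing and 2 immature genes had an unadjusted p under 0.05. Over all tested genes 545 had such a p there. The maturing median was 0.019, with 8 genes above 0 and 7 below. The immature median was -0.11, with 1 gene above 0 and 14 below. That fit took the genotype difference from replicates 5 and 6 alone, so it had less data for it than the main fit. It called 27 genes over all tested genes, against 59 in the main fit.

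By library, the mean log2 CPM of the maturing genes minus that of the immature genes was -0.75, -0.72, -0.87, -0.85 and -1.15 in knockout replicates 1, 3, 5, 6 and 8, against -1.24, -1.21, -0.94, -1.02 and -1.20 in wild-type replicates 2, 4, 5, 6 and 7. Knockout replicates 1, 3, 5 and 6 were above all wild-type libraries, and knockout replicate 8 lay within the wild-type range. Erythroid and striatal marker sums also set knockout replicates 1, 3, 5 and 6 apart from the other libraries. Choroid plexus marker sums did not, with knockout replicate 8 (90.1 CPM) between knockout replicates 6 (11.7 CPM) and 1 (216 CPM). The 5 erythroid markers summed to 386 to 421 CPM in knockout replicates 1, 3, 5 and 6 and 692 CPM in knockout replicate 8, against 482 to 682 CPM in wild-type libraries. All 5 had a log2 fold change below 0, 2 of them at an unadjusted edgeR p under 0.05, and none passed adjustment. The striatal markers summed to 121 to 134 CPM in knockout replicates 1, 3, 5 and 6 and 166 CPM in knockout replicate 8, against 154 to 278 CPM in wild-type libraries. The part of these markers in the difference between the lists was not tested. Knockout replicate 8 also had the lowest knockout Camk2a to Camk2b ratio, at 1.40, while knockout replicate 3, with the highest difference of the lists, had the next lowest of the knockout libraries, at 1.45.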

How the data were processed

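RNA sequencing counts were analysed for 5 HAR.505 knockout and 5 wild-type cortex libraries. The authors deposited whole-number counts per Entrez gene. HISAT2, featureCounts and the build mm39 are named in the submitters' processing notes. Annotation, strandedness and the handling of multimapping reads were not stated there. Related kinase genes and overlapping antisense transcripts could therefore share reads. RNA was extracted with a Qiagen kit, per the labels' protocols. Of 30935 identifiers, 30648 matched a symbol in RefSeq (GRCm38.p6, names and gene order only). Lengths came from GENCODE M21 on GRCm38, another build than the authors', so they approximate the counted length.

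The comparison used edgeR 4.0.16 in R 4.3.3 (TMM factors, filterByExpr, robust quasi-likelihood F test, Benjamini-Hochberg over 15488 genes, threshold 0.05). Intervals are 95% intervals. CPM used TMM-scaled totals, and log2 CPM a prior count of 2. Ratios were compared by exact permutation and correlations by 100000 permutations. The series' design text calls the samples independent; libraries of a genotype differed by more than sampling noise (chi-square per degree of freedom 4.10 to 13.9), so each counted as 1 replicate. Alternatives were other factors and filters, DESeq2 1.42.0, limma-voom (limma 3.58.1), libraries left out, a replicate block and marker covariates. The script was tested on simulated data. The members, lists and tests were chosen with earlier results of these data known. Named were the 10 members, list genes past the threshold, the 2 genes with the smallest p of each pathway list, and the 5 genes most like Camk2a; some of these results are not reported here, though they count in the lists and in adjustments over the 3 ratios and 4 relations. Others were named after their values were seen. No label gives a sequencing batch.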

Additional observations from a re-analysis of the deposited data

Results flagged for a closer look

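4 values were set apart from the other 4 libraries of their genotype by a gap that is large relative to the group's own range, out of 74 groups of 5 libraries tested, and chance gives about 1 in 20. Camk2d was lowest in knockout replicate 8 at 129 CPM, where the other knockout libraries held 214 to 236 CPM, and in wild-type replicate 2 at 194 CPM, where the other wild-type libraries held 224 to 230 CPM. Camk1 was highest in wild-type replicate 2 at 56.2 CPM, above 53.7 to 54.3 CPM in the other wild-type libraries, where counting error alone gives a coefficient of variation of 3.18%. Camk1d was highest in wild-type replicate 6 at 171 CPM, above 147 to 153 CPM in the other wild-type libraries.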

How the results depend on the processing

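0 of the 10 kinase genes passed the test under any of 22 alternatives; the lowest adjusted p was 0.376, for Camk2a without knockout replicate 8. Of 220 log2 fold changes, 204 kept their sign. With the replicate block the signs of Camk2b (-0.014), Camk4 (-0.0079), Camk1d (-0.011) and Camkk2 (-0.0088) turned, and with the striatal covariate those of Camk2g (0.11), Camk4 (-0.046) and Camk1d (-0.020). With single libraries left out the ranges that included 0 were -0.0045 to 0.026 for Camk2b, -0.13 to 0.052 for Camk2d, -0.027 to 0.018 for Camk2g, -0.079 to 0.00070 for Camk1 and -0.017 to 0.059 for Camk1d. The number of genes called was 59, and 171 with no filter, 124 with DESeq2, 27 with the replicate block, 1 and 0 with the striatal and choroid plexus covariates (edgeR; 785 at an unadjusted p under 0.05 with the choroid plexus covariate), 12 without knockout replicates 3, 5 and 6, and 15 to 182 with single libraries left out. Without knockout replicate 3, 6 or 8 it was 17, 37 and 182, and without wild-type replicate 2, 4 or 5 it was 15, 21 and 17. With single libraries left out the log2 difference of the Camk2a to Camk2b ratio was 0.031 to 0.12 and that of Grin2a to Grin2b 0.14 to 0.29, and the Grin2a to Grin2b difference was 0.085 without knockout replicates 3, 5 and 6 together. Member pairs past adjustment numbered 0, and 1 without the 2 farthest libraries. The genotypes share only the replicate numbers 5 and 6, whose deviations correlated at -0.030 and -0.057. Over all pairs of a knockout and a wild-type library this ran from -0.057 to 0.083. With only 2 shared numbers, this cannot show whether the numbers pair libraries. The replicate block fit takes its genotype difference from the libraries numbered 5 and 6 alone. The striatal and choroid plexus marker means separated the genotypes without overlap, so fits with these covariates cannot cleanly separate genotype from marker level. The cause of the changes between alternatives was not tested. The hippocampal covariate was added after the data were seen. Counting error was largest for Camkk1 and Camk1, with coefficients of variation of 3.68% and 3.18%.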

Other observations

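Beyond the genes named in the report, other genes were low in knockout replicate 8 and were picked after their values were seen. Calb1, the calbindin gene, stood at 61.6 CPM in that library and at a mean of 104 CPM in the 9 others. Nnat, the neuronatin gene, stood at 391 CPM against 647 CPM, and Vgf, a neuropeptide precursor gene, at 113 CPM against 184 CPM. Ptgds stood at 338 CPM against 551 CPM, and Wfs1, an endoplasmic reticulum membrane protein gene, at 64.7 CPM against 99.5 CPM. The number of genes with a mean of at least 50 CPM that lay as far below the other 9 libraries as Camk2d did in knockout replicate 8, or further, was 10 in that library, Camk2d included, 3 in knockout replicate 3, 2 in knockout replicate 6, 1 in wild-type replicate 7 and 0 in the 6 other libraries.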
